A study of Mus musculus with 15 samples.

Results

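The genes described here are 7 matrix metalloproteinases (Mmp2, Mmp3, Mmp10, Mmp11, Mmp12, Mmp13 and Mmp14) and 3 tissue inhibitors of metalloproteinases (Timp1, Timp2 and Timp3). They were chosen by name, and all 10 were found among the 17271 genes of the deposited expression table. RNA was sequenced from 15 mouse mammary tumours, all grown in vivo, of strain Balbc and of p53-null genotype, so that every group lacks the tumour suppressor p53, the comparison groups included. Their titles name 4 tumour models, 2208L with 8 samples, 2151R with 4, 2225L with 2 and T11 with 1. The series is about combining chemotherapy with the depletion of macrophages, but neither treatment appears in a sample title. In 2151R, replicates 3 and 4 are titled NT, replicate 2 is titled 53ca and replicate 1 carries a number in that place, and neither of these terms is explained. One sample of 2225L is titled T-Vivo. In 2208L, replicates 2 to 5 are titled PBS, replicates 6 to 8 are titled 3day nt, and replicate 1 carries no such term. Each PBS title also begins with DH and its own number, and each 3day nt title with KM and its own number. These codes are not explained. No age, host or number of animals per sample is given in the labels, and nothing says that replicates are separate animals, so p-values measure the spread between these samples.

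Matrix metalloproteinases (MMPs) are zinc-dependent proteases that cut collagens, proteoglycans and other proteins outside the cell. Most are secreted as inactive proenzymes, some are held in the membrane, and removal of the propeptide by plasmin, furin-like proteases or another MMP activates them. Timps bind the active site and block it, and in mammary tumours fibroblasts, macrophages, neutrophils and the tumour cells themselves can make both enzymes and inhibitors.

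Each value below is the log2 ratio of a gene's expression to an unstated reference level of that same gene. Differences between samples can therefore be read for 1 gene, and levels of different genes cannot be compared. A gene is called different where its Benjamini-Hochberg adjusted p-value over all 17271 genes in limma is under 0.05. Sequencing depth is unknown, as the table holds no counts. The numbers that end the titles, read here as library numbers although they are not explained, differ by group. Those of 2151R, of the PBS samples and of the 3day nt samples fall in separate ranges, so a difference between these groups and one between library ranges cannot be told apart. In a bulk tumour, fewer cells of a type and less RNA per cell cannot be told apart either.

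The 4 genes with the largest SD of the 10, Mmp13, Mmp12, Mmp3 and Mmp10, lie in 1 cluster on chromosome 9, in that order and all on the plus strand. The GRCm38 annotation places Mmp13 at 7272514 to 7283331, Mmp12 at 7344381 to 7369499, Mmp3 at 7445822 to 7455975 and Mmp10 at 7502352 to 7510240. The 120 bases before their RefSeq starts (GRCm38.p6) are shown because these genes share a short element there, though for Mmp12 not at every listed start. Capitals mark the letters TGANTCA, which the transcription factor AP-1 can bind.
Mmp13 (chr9:7272394-7272513, strand +): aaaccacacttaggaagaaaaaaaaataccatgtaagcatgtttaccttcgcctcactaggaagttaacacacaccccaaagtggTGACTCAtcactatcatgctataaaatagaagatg
Mmp12 (chr9:7347254-7347373, strand +): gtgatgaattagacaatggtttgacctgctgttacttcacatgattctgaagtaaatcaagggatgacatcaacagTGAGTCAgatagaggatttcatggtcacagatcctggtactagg
Mmp3 (chr9:7445702-7445821, strand +): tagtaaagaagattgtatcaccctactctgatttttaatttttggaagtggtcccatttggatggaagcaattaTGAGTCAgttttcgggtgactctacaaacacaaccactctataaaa
Mmp10 (chr9:7502222-7502341, strand +): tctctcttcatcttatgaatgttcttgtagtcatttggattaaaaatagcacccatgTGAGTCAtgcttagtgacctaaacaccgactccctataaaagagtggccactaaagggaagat
In a window of 250 bases before to 50 bases after the start, searched on both strands, TGANTCA was found in these 4 of the 9 genes with an entry, and in 7.81% of all 32851 such windows. Its first base lay at -35 from the start in Mmp13, -44 in Mmp12, -46 in Mmp3 and -63 in Mmp10. The Mmp12 start shown, at 7347374, lies inside the gene as placed above and was chosen because it holds the match. Another listed start of Mmp12, at 7344397, is nearer to the annotated start. Its window held no such match, and its 120 bases held 44.2% G or C. The letters TATAAA were found in the same 4 genes and in 13.6% of all windows. Mmp2 was not matched to an entry.

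Mmp14 and Timp2 are shown for contrast, because they are the 2 of the 10 whose values in 2151R and 2208L did not overlap. In both, capitals mark the GC box GGGCGG, which the factor Sp1 can bind.
Mmp14 (chr14:54431478-54431597, strand +): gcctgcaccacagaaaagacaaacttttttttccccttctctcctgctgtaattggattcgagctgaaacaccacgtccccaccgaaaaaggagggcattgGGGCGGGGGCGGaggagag
Timp2 (chr11:118355412-118355531, strand -): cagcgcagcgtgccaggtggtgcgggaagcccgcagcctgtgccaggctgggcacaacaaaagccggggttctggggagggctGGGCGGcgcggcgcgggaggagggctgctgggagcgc
GGGCGG was found on either strand in Mmp11, Mmp14, Timp1, Timp2 and Timp3, and in 35.7% of all windows. The 120 bases held 75.0% G or C in Timp2 and 54.2% in Mmp14, against 35.8% to 40.8% in the 4 sequences of the chromosome 9 genes. The letters AGGAAG, which Ets factors can bind, were found in 6 of the 9 genes and in 35.4% of all windows. A match is a description of the sequence and not a measurement of binding.

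The spread over the 15 samples differed between the genes. The SD was 2.35 for Mmp10, 1.95 for Mmp3, 1.92 for Mmp13 and 1.77 for Mmp12, against 0.692 for the median gene. Timp2 (1.35) and Timp3 (1.10) varied more than Mmp2 (0.92), Mmp14 (0.82), Mmp11 (0.80) and Timp1 (0.71).

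**Figure D1:**
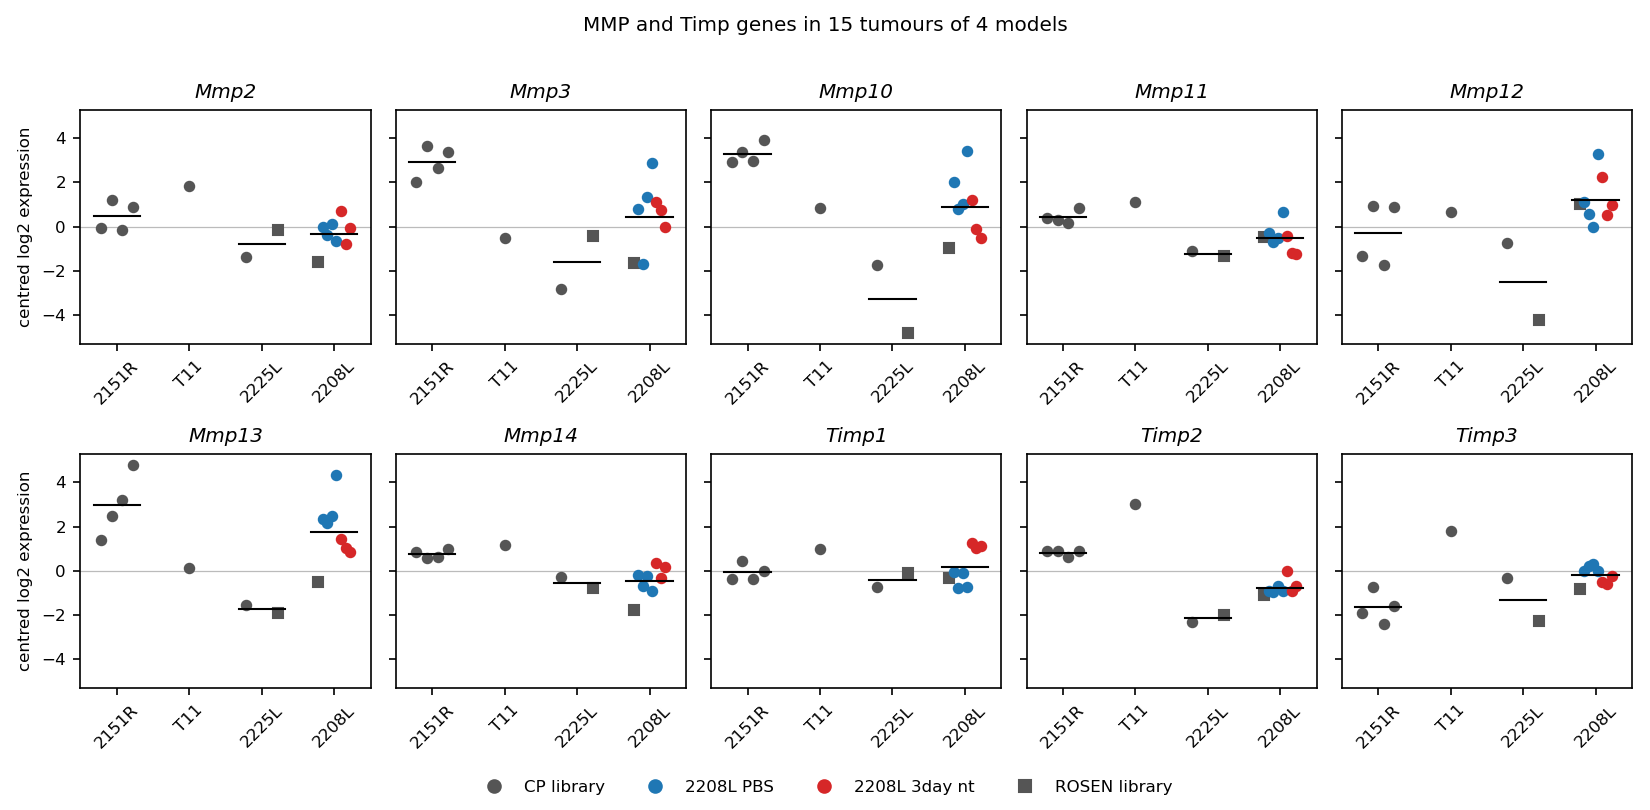
Log2 expression relative to an unstated reference of the same gene (vertical axis) for the 10 genes in each of the 15 samples, grouped by model, with a line at each model mean. Mmp3, Mmp10 and Mmp13 are high in 2151R and low in 2225L, and for Timp2 the 4 models do not overlap.

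The first comparison asks how the protease genes differ between 2151R and 2208L. Of the 10 genes, 5 were higher in 2151R (Mmp3, Mmp10, Mmp11, Mmp14 and Timp2) and 1 was lower (Timp3). Among all genes 26.1% were called higher and 22.7% were called lower, so that the count of 6 called among 10 is near the background of 48.8%. The ranges of the groups did not overlap for 2 of the 10, Mmp14 and Timp2, against 38.8% of all genes. The median difference was 1.07 over the 10 genes and 0.10 over all genes.

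The second comparison asks the same of 2225L and 2208L. Of the 10 genes, 4 were lower in 2225L (Mmp10, Mmp12, Mmp13 and Timp2) and 0 were higher, against 17.3% lower and 15.6% higher among all genes, together 32.9%. These same 4 genes had ranges that did not overlap, against 31.7% of all genes. The median difference was -1.24 over the 10 genes and -0.04 over all genes. In the third comparison, 6 of the 10 genes were lower in 2225L than in 2151R and 0 were higher, against 25.8% and 22.8% of all genes, together 48.6%. These were Mmp3, Mmp10, Mmp11, Mmp13, Mmp14 and Timp2. The ranges did not overlap for 7 of the 10, the 6 named and Mmp2, against 62.4% of all genes. The 3 comparisons share samples and are not independent of each other.

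**Figure D2:**
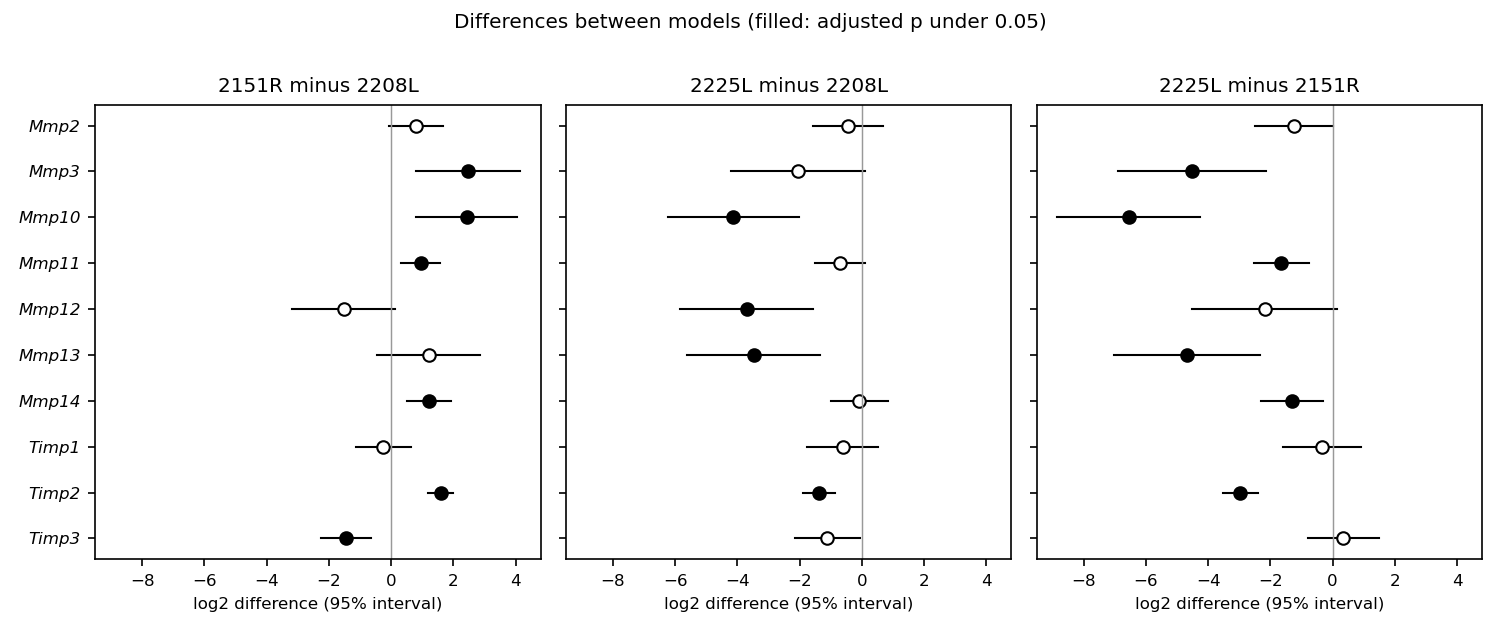
Difference between model means in log2 units (horizontal axis) with its 95% interval from limma for the 10 genes in 3 comparisons, with filled circles where the adjusted p is under 0.05. For Timp2 the interval excludes 0 in every panel, and for Mmp10 it does so with the largest difference, -6.55, between 2225L and 2151R.

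Mmp10 and Mmp3 encode stromelysins, proteases of proteoglycans and fibronectin that can also activate procollagenases. The value of Mmp10 was 2.91, 3.40, 2.95 and 3.91 in replicates 1 to 4 of 2151R, and 0.82 in T11. It was -1.71 and -4.81 in 2225L and ran from -0.95 through a median of 0.93 to 3.42 in 2208L. All samples of 2151R were above every other sample except replicate 5 of 2208L, and both samples of 2225L were below all others. Mmp10 differed by 2.42 (SE 0.76, limma adjusted p 0.0171) between 2151R and 2208L, a 5.37-fold difference. Between 2225L and 2208L it differed by -4.13 (SE 0.98, limma adjusted p 0.00577), which is 17.5-fold lower in 2225L.

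Mmp3 was 2.04, 3.63, 2.64 and 3.36 in 2151R, -0.50 in T11, and -2.80 and -0.42 in 2225L. In 2208L its lowest value was -1.69, the median 0.77 and the highest 2.87. The ranges of 2151R and 2208L overlapped, because replicate 5 of 2208L lay above replicates 1 and 3 of 2151R, while all samples of 2225L lay below those of 2151R. The difference between 2151R and 2208L was 2.47 (SE 0.78, limma adjusted p 0.0180). Between 2225L and 2208L it was -2.05 with an interval from -4.22 to 0.12, and it did not pass the test. Between 2225L and 2151R, Mmp3 differed by -4.52 (SE 1.10) and Mmp10 by -6.55 (SE 1.07), with limma adjusted p-values of 0.00433 and 0.000247.

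These stromelysin calls were not kept in every choice of samples. A fit without 1 sample of 2225L, here and for the genes below, leaves 1, which is assumed to vary like the other groups, so a call lost or gained there rests on a lone sample. With the PBS samples as the sole 2208L samples, the difference between 2151R and 2208L was 2.08 for Mmp3 and 1.47 for Mmp10, and neither was called. When samples titled NT, nt or PBS alone were used, it was 2.26 for Mmp3 and 2.30 for Mmp10, and neither was called. Without replicate 4 of 2151R it was 2.32 for Mmp3 and 2.22 for Mmp10, and without replicate 2 it was 2.24 for Mmp3, and these calls were lost. Without replicate 2 of 2225L, Mmp10 differed by -2.58 from 2208L and was not called. Without replicate 1 of 2225L, Mmp3 differed by -3.33 from 2151R and was not called. The call of Mmp10 between 2225L and 2151R held in every setting tried.

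Mmp13, the main interstitial collagenase of the mouse, cuts fibrillar collagens. Its value was 1.38, 2.49, 3.20 and 4.78 in 2151R, 0.11 in T11, and -1.53 and -1.89 in 2225L. In 2208L it ran from -0.49 through a median of 1.80 to 4.31. Both samples of 2225L lay below all others, and 2151R and 2208L overlapped across most of their ranges. Mmp13 was 11.1-fold lower in 2225L than in 2208L (difference -3.47, SE 0.99, limma adjusted p 0.0163) and 25.4-fold lower than in 2151R (-4.67, SE 1.08, limma adjusted p 0.00321). The difference between 2151R and 2208L was 1.20, with an interval from -0.45 to 2.85, and did not pass. The call against 2208L was lost without replicate 1 of 2225L (-3.65) and without replicate 2 (-3.29).

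Mmp12 encodes macrophage metalloelastase, which cuts elastin and is made mostly by macrophages. It was -1.33, 0.95, -1.75 and 0.90 in 2151R, 0.68 in T11, and -0.75 and -4.22 in 2225L. In 2208L the lowest value was 0.00, the median 1.02 and the highest 3.28. Both samples of 2225L and replicates 1 and 3 of 2151R lay below all of 2208L. Mmp12 was 13.0-fold lower in 2225L than in 2208L (difference -3.70, SE 0.98, limma adjusted p 0.0113), a call that was lost without replicate 2 of 2225L (-1.97). Its difference between 2151R and 2208L was -1.53, with an interval from -3.17 to 0.12, and was not called.

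Macrophage markers are given beside Mmp12. Of 10 markers, 6 were higher in 2151R than in 2208L and 0 lower, and 7 were lower and 0 higher in 2225L than in 2208L. The mean of the markers, each centred over the samples, was 0.58 to 1.01 in 2151R, 1.04 in T11, -0.62 to 0.36 in 2208L, and -1.97 and -0.77 in 2225L. The sample of 2225L with the lower Mmp12 value, replicate 2, had the higher macrophage score. Neutrophils are another source of MMPs, and their 5 measured markers were all lower in 2225L than in 2208L. In 2151R against 2208L, 3 of these 5 were lower and 0 higher. All 5 endothelial markers and 2 of 5 adipocyte markers were higher in 2151R than in 2208L, and 0 of either were lower. The neutrophil score was -2.52 and -2.69 in 2225L, -1.51 to 0.15 in 2151R, 0.68 in T11 and -0.24 to 2.23 in 2208L. The part of these cells in the protease results was not tested, and since each gene is centred the table does not show whether a marker is absent.

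The titles of the samples end in CP or ROSEN and a number, taken here as a library prefix and number, although no source used here says what they mean. In 2225L replicate 1 is CP and replicate 2 is ROSEN, and 2208L has 7 samples of the first and 1 of the second. Within the CP samples, 2225L minus 2208L was -2.84 for Mmp10, -1.99 for Mmp12, -3.61 for Mmp13 and -1.59 for Timp2. The CP number of 2225L lies outside the range of those of 2208L, so model and library number cannot be told apart there. Within the ROSEN pair the same differences were -3.86, -5.25, -1.40 and -0.88. All 4 genes were lower in 2225L within each prefix. For these genes both samples of 2225L lay below every sample of 2208L. The sign within each prefix follows from that and is not a separate check on the prefix. Mmp3 was lower within CP (-3.54) and higher within ROSEN (1.22), and Mmp2 likewise (-1.24 and 1.43). Mmp14 and Timp1 were also lower in 2225L within CP and higher within ROSEN, there by 0.99 and 0.21. The samples of 2151R and T11 are all of prefix CP.

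Mmp14 encodes a membrane-anchored MMP that activates the gelatinase encoded by Mmp2, and Timp2 takes part in that activation as a bridge between them, besides being an inhibitor. Mmp14 (chromosome 14, 54431612 to 54445364, plus strand) was 0.83, 0.59, 0.62 and 1.01 in 2151R, 1.17 in T11, and -0.29 and -0.78 in 2225L. In 2208L it ran from -1.78 through a median of -0.30 to 0.36. All samples of 2151R and T11 lay above all samples of 2208L and 2225L. Mmp14 was 2.32-fold higher in 2151R than in 2208L (difference 1.21, SE 0.33, limma adjusted p 0.00749), and this held in every setting tried. Between 2225L and 2208L the difference was -0.08, with an interval from -0.99 to 0.82. Mmp14 was also lower in 2225L than in 2151R (-1.30, SE 0.46, limma adjusted p 0.0327). That call was lost without replicate 1 of 2151R (-1.27), replicate 4 of 2151R (-1.22), replicate 1 of 2225L (-1.55) or replicate 2 of 2225L (-1.05), and with prefix as a covariate (-0.72).

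Timp2 (chromosome 11, 118301069 to 118355740, minus strand) was the sole gene of the 10 at which every model stood apart from the next. It was 3.02 in T11, 0.90, 0.89, 0.60 and 0.91 in 2151R, and -2.30 and -1.99 in 2225L. Its values in 2208L went from -1.11 through a median of -0.90 to 0.00. No model overlapped another, in the order T11, 2151R, 2208L and 2225L. Timp2 was 3.0-fold higher in 2151R than in 2208L (difference 1.59, SE 0.18, limma adjusted p 1.1e-05) and 2.61-fold lower in 2225L than in 2208L (-1.38, SE 0.24, limma adjusted p 0.000726). It was 7.84-fold lower in 2225L than in 2151R (-2.97, SE 0.26, limma adjusted p 1.13e-06). All 3 calls held in every setting tried.

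Mmp2 (chromosome 8, 92827291 to 92853420, plus strand) encodes a gelatinase that cuts denatured collagen and collagen IV of basement membrane. Its values were -0.08, 1.22, -0.14 and 0.89 in 2151R, 1.84 in T11, and -1.38 and -0.15 in 2225L. Its 2208L values ran from -1.58 through a median of -0.22 to 0.71. T11 was above all other samples. Both samples of 2225L lay below all of 2151R, by a narrow gap between the nearest samples, and 2208L overlapped both. None of the 3 differences passed the test, at 0.80 for 2151R minus 2208L (interval -0.08 to 1.67), -0.44 for 2225L minus 2208L and -1.24 for 2225L minus 2151R. Without the 3 libraries of high skeletal muscle signal, replicate 3 of 2151R and replicates 6 and 8 of 2208L, Mmp2 was higher in 2151R than in 2208L (1.21) and called. In that setting Mmp3 (2.60) and Mmp10 (2.37) were not called. The skeletal muscle score was 6.39, 9.41 and 8.89 in these 3 libraries, and its part in the results was not tested.

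Mmp11 (chromosome 10, 75923222 to 75936496, minus strand) encodes stromelysin-3, an MMP that is activated inside the cell and is best known from fibroblasts around carcinomas. It was 0.41, 0.30, 0.19 and 0.84 in 2151R, 1.13 in T11, and -1.11 and -1.32 in 2225L. In 2208L it ran from -1.23 through a median of -0.47 to 0.66. Replicate 5 of 2208L was the sole 2208L sample within the range of 2151R. Mmp11 differed by 0.95 (SE 0.29, limma adjusted p 0.0161) between 2151R and 2208L and by -1.65 (SE 0.41, limma adjusted p 0.00524) between 2225L and 2151R. The first call was lost without replicate 4 of 2151R (0.81), with PBS samples alone as 2208L (0.64), and with samples titled NT, nt or PBS alone (1.04). The second was lost with quantile normalization.

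The fibroblast score overlapped between 2151R and 2208L. Of 8 markers, 2 were higher in 2151R than in 2208L and 0 lower, and 0 were called in either direction between 2225L and 2208L. The fibroblast score was 0.30 to 1.11 in 2151R, 0.44 in T11, -1.62 to 0.78 in 2208L, and -0.65 and -0.71 in 2225L. The epithelial score separated the models, at -3.04 to -2.01 in 2151R, -6.99 in T11, 0.79 to 2.06 in 2208L and 3.31 to 3.44 in 2225L. Of 7 epithelial markers, 6 were lower and 1 higher in 2151R than in 2208L. In 2225L against 2208L, 2 were higher, 0 lower and 5 not called. The gap there was largest at Krt5 (means 7.79 and -2.01) and Krt14 (6.24 and 1.73). Means were slightly lower in 2225L for Epcam (0.61 and 0.88) and Cldn7 (1.03 and 1.26). They were slightly higher for Cdh1 (0.33 and 0.30), Krt8 (0.76 and 0.51) and Krt18 (0.88 and 0.28). The part of either list in the protease results was not tested.

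Timp3 encodes an inhibitor that stays bound to the extracellular matrix and also blocks ADAM proteases. Its values were -1.89, -0.72, -2.42 and -1.58 in 2151R, 1.79 in T11, and -0.34 and -2.29 in 2225L. In 2208L it ran from -0.84 through a median of -0.12 to 0.30. T11 was above all other samples, and 3 of the 4 samples of 2151R were below all of 2208L. Timp3 differed by -1.45 (SE 0.37, limma adjusted p 0.00594) between 2151R and 2208L, opposite in sign to Timp2. With the 3day nt samples as the sole 2208L samples the difference was -1.21 and not called. Between 2225L and 2208L it was -1.10 and not called, but without replicate 1 of 2225L it was -2.08 and called.

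Timp1 encodes a soluble inhibitor that many cells induce in inflammation. It was -0.37, 0.45, -0.36 and 0.00 in 2151R, 0.98 in T11, and -0.75 and -0.10 in 2225L. The 2208L samples ran from -0.76 through a median of -0.08 to 1.26. All samples of 2151R, 2225L and T11 lay within the range of 2208L, and no model comparison was called, with a difference of -0.26 (interval -1.14 to 0.63) between 2151R and 2208L. Against the 3day nt samples alone, Timp1 was lower in 2151R (-1.22) and in 2225L (-1.57), and both were called. Timp1 (chromosome X, 20870166 to 20874735) lies inside Syn1, and Timp3 (chromosome 10, 86300372 to 86349506) inside Syn3, each on the opposite strand. The use of strand in counting is not given in the sources used here, so reads of these overlapping genes may not be separable. Syn1 had its highest model value in T11 as well, at 3.43, while Syn3 was -0.67 there.

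T11 has 1 sample, so its values have no replicate check and no test. It lay above all 14 other samples for Mmp2, Mmp11, Mmp14, Timp2 and Timp3, 5 of the 10 genes, against 17.4% of all genes, and below all others for 0 of the 10, against 9.47%. From the mean of 2208L it differed by more than 1 log2 unit upward for 5 genes (22.9% of all genes) and downward for 1, Mmp13 (15.6%). The values were 3.79 for Timp2, 2.16 for Mmp2, 2.0 for Timp3, 1.65 for Mmp11 and 1.62 for Mmp14. From 2151R, T11 differed upward for 4 genes (15% of all genes) and downward for 3 (10.5%). The 3 lower genes were Mmp3 (-3.42), Mmp13 (-2.85) and Mmp10 (-2.47), while Timp3 was higher by 3.45 and Timp2 by 2.20. All 10 genes were more than 1 log2 unit above 2225L in T11, against 30% of all genes, and 0 were more than 1 below, against 21.3%.

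Within 2208L, the titles allow a comparison of the 4 PBS samples with the 3 samples titled 3day nt. The title codes DH and KM follow the same split and cannot be told apart from it. Of the 10 genes, 2 were higher in PBS (Mmp13 and Timp3) and 1 was lower (Timp1), against 17.4% and 16.5% of all genes, together 34%. These 3 genes were also those whose ranges did not overlap, against 44.8% of all genes. The median difference was 0.10 over the 10 genes and -0.05 over all genes.

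Timp1 was -0.05, -0.76, -0.10 and -0.74 in PBS samples and 1.26, 1.05 and 1.12 in 3day nt samples. Every 3day nt sample was higher, by 2.94-fold on the means (difference -1.56 for PBS minus 3day nt, SE 0.22, limma adjusted p 0.00524). Mmp13 was 2.32, 2.15, 2.49 and 4.31 in PBS and 1.44, 1.04 and 0.83 in 3day nt samples. It differed by 1.72 (SE 0.53, limma adjusted p 0.0470), with every PBS sample higher. For Timp3 the mean of the PBS samples was 0.13 ± 0.16 (SD, n = 4) and that of the 3day nt samples was -0.44 ± 0.20 (SD, n = 3), a difference of 0.57 (SE 0.15, limma adjusted p 0.0256).

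The calls of Mmp13 and Timp3 in this comparison were fragile. That of Mmp13 was lost without any 1 of replicates 2, 3, 4, 6, 7 and 8, with differences from 1.22 to 1.94 over all samples left out in turn. That of Timp3 was lost without replicate 3, 4, 6 or 7, with differences from 0.49 to 0.69. Timp1 stayed called without each single sample. Without the muscle-high replicates 6 and 8, which leaves 1 sample titled 3day nt, Mmp13 (1.78), Timp3 (0.74) and Timp1 (-1.46) all kept their sign and 0 of the 10 genes were called. Neutrophil markers moved with this split, with 4 of 5 higher in PBS and scores of 0.70 to 2.23 in PBS against -0.24 to 1.13 in 3day nt samples. Of 10 macrophage markers, 1 was lower and 0 higher in PBS. The part of these markers was not tested.

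The other genes of the pathway were taken as lists. Of 16 other MMPs, 9 are in the table, and 4 were higher in 2151R than in 2208L and 1 lower. Mmp9, the other gelatinase, was 4.87, 4.34, 4.93 and 5.63 in 2151R, 3.25 in T11, -1.78 and -1.79 in 2225L, and -1.42 to 1.55 in 2208L. It was far above 2208L in all samples of 2151R (difference 4.93, SE 0.45, limma adjusted p 1.08e-06) and lower in 2225L than in 2208L (-1.79, SE 0.58). Mmp16, a membrane-type MMP, differed by 4.45 (SE 0.63) between 2151R and 2208L, with 2 of the 8 samples of 2208L at a repeated value. In 2225L against 2208L, 2 of the 9 were lower, Mmp9 and Mmp25 (-1.82, SE 0.46), and 0 higher. The call of Mmp9 was lost without replicate 1 (-1.80) or replicate 2 (-1.79) of 2225L, and that of Mmp25 without replicate 1 (-1.32). In 2225L against 2151R, 5 were lower, among them Mmp28 (-3.71), and 1 was higher. Of 3 other inhibitors in the table, 1 was lower in 2225L than in 2208L, Tfpi2 (-1.55, and -1.35 and not called without replicate 1 of 2225L), and 0 were called between 2151R and 2208L.

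Plasminogen activation and proenzyme processing genes split in both directions. Of 12 in the table, 5 were higher in 2151R than in 2208L and 4 lower. The lower ones included St14 (-6.55, SE 0.18), which encodes the epithelial protease matriptase, and Pcsk6 (-4.61, SE 0.33), a furin-like convertase. In 2225L against 2208L, 3 were lower, among them the urokinase receptor Plaur (-2.29). Of 15 ADAM and ADAMTS proteases, 7 were higher in 2151R than in 2208L and 1 lower, with Adamts14 at 2.56 and Adamts1 at -2.20. In 2225L against 2208L, 9 of these 15 were lower and 2 higher, the higher being Adamts9 (3.15) and Adamts15 (3.0), and the list's median was -1.34 against -0.04 over all genes. Several of the lower ones depended on a single sample of 2225L. Without replicate 2, Adam8 went from -2.28 to -1.32, Adam19 from -1.55 to -1.07 and Adamts12 from -1.34 to -1.07. Without replicate 1, Adam15 went from -0.95 to -0.47 and Adamts2 from -0.93 to -0.75.

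Of 13 genes for matrix substrates, 4 were higher in 2151R than in 2208L, led by the proteoglycans Vcan (4.15) and Dcn (3.56), and 0 were lower. In 2225L against 2208L, 3 were lower and 1 higher. The largest differences were at Fn1 (-2.95), which encodes fibronectin, and Tnc (-2.64), tenascin C. The higher gene was Vcan (2.34), whose call was lost without replicate 1 of 2225L (1.63). The call of Col5a1 (-1.22), also lower, was lost without replicate 1 (-1.21) or replicate 2 (-1.22) of 2225L. Between 2225L and 2151R, 7 of the 13 were lower in 2225L and 0 higher, among them Dcn (-3.43) and Fn1 (-3.20). Without replicate 2 of 2225L the calls of Dcn (-3.13), Vcan (from -1.80 to -1.08) and Tnc (from -2.15 to -1.69) were lost. Those of Col3a1 (-1.89) and Fbn1 (-1.42) were lost without either sample of 2225L. That of Fbn1 was also lost without replicate 2 (-1.09) or replicate 4 (-1.40) of 2151R. In PBS against 3day nt samples, 3 of the 13 were higher and 0 lower, against 17.4% and 16.5% of all genes. The higher genes, Col4a1 (1.51), Fn1 (1.46) and Col4a2 (1.36), were named after their values were seen. Some 3day nt samples are muscle-high libraries, whose part in these differences was not tested.

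Factors that bind AP-1, Ets and Runx elements gave 4 higher and 4 lower among 13 in 2151R against 2208L. Fosl1, an AP-1 subunit, was 5.73, 5.32, 5.54 and 5.42 in 2151R, 3.58 in T11, -2.83 and -7.15 in 2225L, and -3.06 to 0.00 in 2208L. It was higher in 2151R than in 2208L by 7.50 (SE 0.75, limma adjusted p 2.8e-06) and lower in 2225L than in 2208L (-2.99, SE 0.97, limma adjusted p 0.0311). The second difference rests on replicate 2 of 2225L, since replicate 1 lay within the range of 2208L. Without replicate 2 it was -0.83 and not called, and without replicate 1 it was -5.15. Runx2 differed by 2.19 (SE 0.49) between 2151R and 2208L, and Junb by -2.30 (SE 0.21) between 2225L and 2208L. For these factors, 4 of 13 were lower and 0 higher in 2225L than in 2208L, against 17.3% and 15.6% of all genes. Like that of Fosl1, the calls of Fos and Fosl2 were lost without replicate 2 of 2225L. Fos went from -1.45 to -0.90 and Fosl2 from -1.76 to -0.75.

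**Figure D3:**
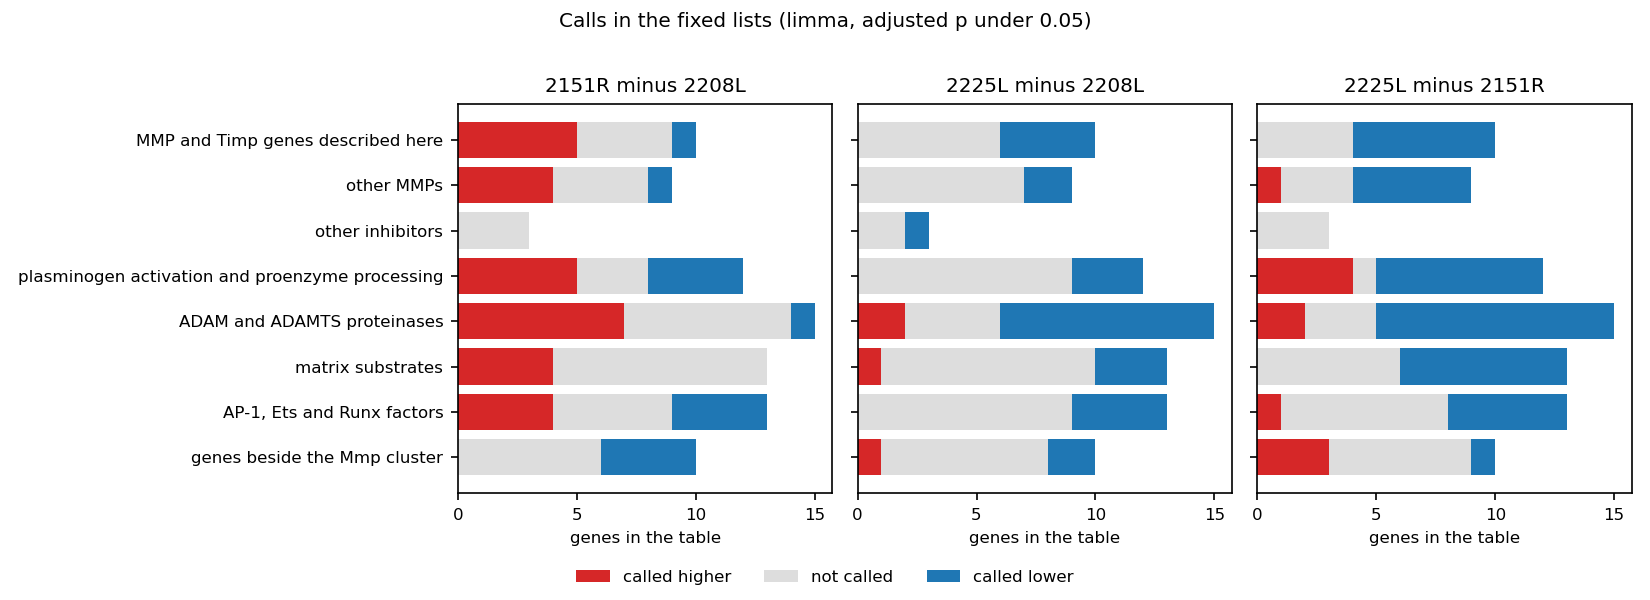
Number of genes called higher, called lower or not called (horizontal axis, genes) in each list, with 1 panel for each model comparison. The 10 genes described here have 5 higher and 1 lower in 2151R against 2208L, and 0 higher and 4 lower in 2225L against 2208L.

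The genes around the chromosome 9 cluster were read as well. Within 2000 kb of the Mmp3 start on either side, 17 of 23 annotated genes are in the table, and 5 of these are MMPs, Mmp8 besides the 4 described. Of the 12 other genes, 1 was higher in 2151R than in 2208L and 4 were lower, with a median of -0.26. In 2225L against 2208L, 1 was higher and 2 were lower, with a median of -0.02. Mmp8, the neutrophil collagenase, differed by -0.20 and -2.91 in these comparisons and was called in neither. The largest difference in the window between 2151R and 2208L was at a neighbour, Pgr, which encodes the progesterone receptor and was higher by 4.16. The 4 lower genes were Cep126 (-2.09), Pdgfd (-1.36), Yap1 (-0.85) and Cfap300 (-0.75). In 2225L against 2208L, Pdgfd (-1.82) and Birc3 (-1.19) were lower and Cfap300 (1.27) higher. The call of Pdgfd there was lost without replicate 1 of 2225L (-1.32), and that of Cfap300 without replicate 2 (0.72).

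**Figure D4:**
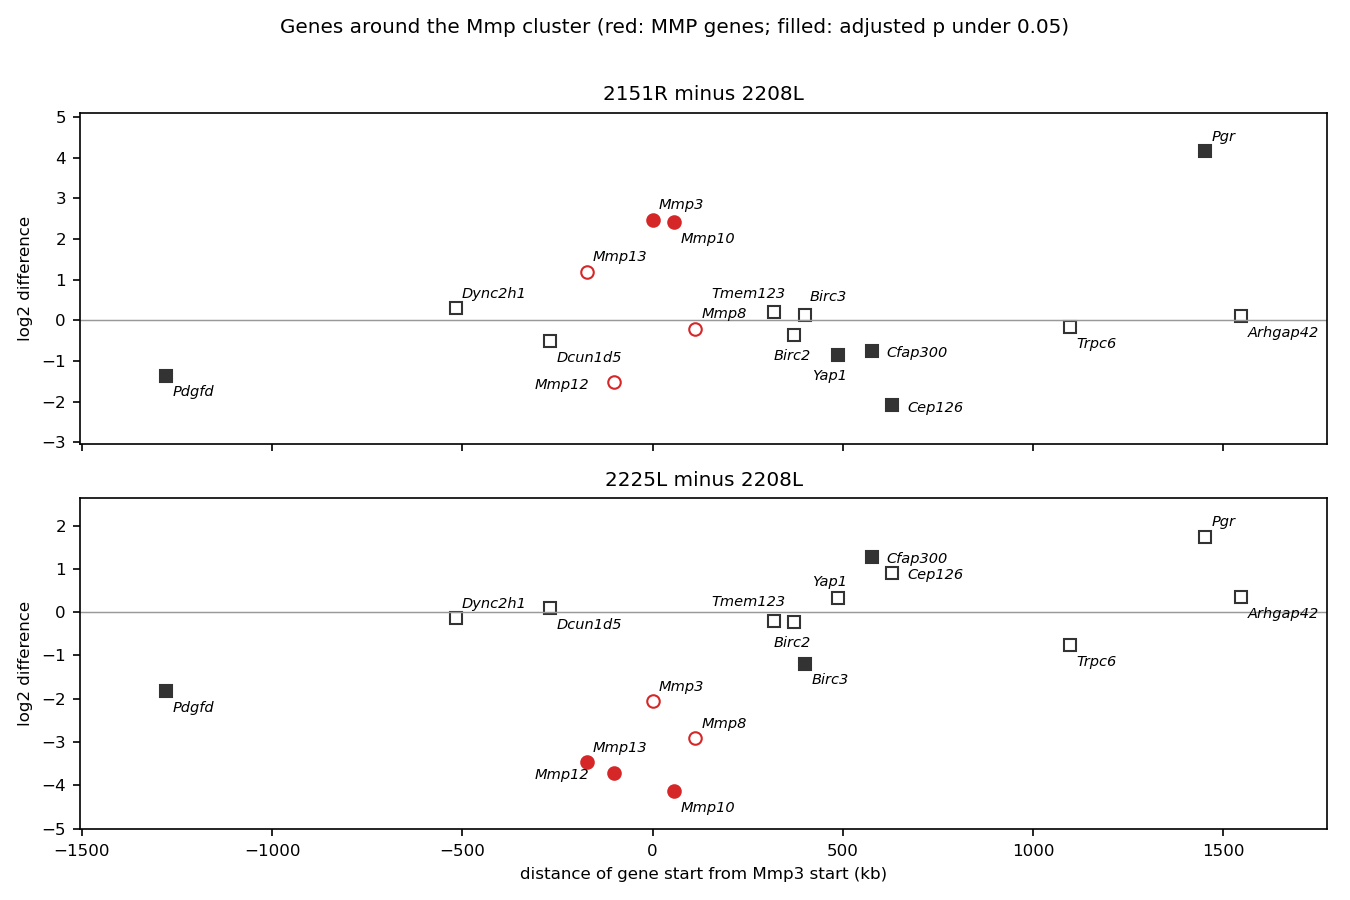
Log2 difference between models (vertical axis) against the distance of each gene start from the Mmp3 start in kb (horizontal axis), with MMPs as red circles, other genes as dark squares and filled symbols where the adjusted p is under 0.05. In the lower panel all 5 MMPs lie below -2 while 12 neighbouring genes have a median of -0.02.

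Genes with symbols of Gm plus digits or ending in Rik were left out of a search for similar profiles. The genes whose profile over the 15 samples was closest to those of the 3 most variable MMPs were sought among the 14672 others that remained. The measure was the mean absolute difference after each gene was centred. The closest genes are named with this value. For Mmp10 they were Grik2 (0.71), Hmga2 (0.81) and Lin28b (0.82), and Mmp13 was as near, at 0.82. For Mmp3 they were Akr1c18 (0.59), Saa3 (0.61) and Ccn5 (0.67), all nearer than the closest of the 10 genes, Mmp13 (0.89). For Mmp13 they were Grik2 (0.71), Trpc1 (0.79) and Nipal1 (0.81). These distances are descriptions of 15 samples that share the model structure.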

How the data were processed

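RNA was measured in 15 tumours, with groups taken from the sample titles. Per the labels' protocols, a Qiagen RNeasy kit gave total RNA, from which an Illumina TruSeq mRNA kit made libraries of polyadenylated RNA. STAR, Salmon and mm10 are named in the submitters' processing notes. The authors deposited log2 values centred per gene, and the annotation, the normalization, the offset before the logarithm and the reference level are not given in the sources used here. Of the 17271 genes, 727 (4.21%) hold a value repeated between samples, and none of the 10 genes described does.

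Values were used as deposited in limma 3.58.1 under R 4.3.3 (lmFit and eBayes). One fit of all 15 samples with a mean per model gave the 3 model comparisons, and a fit of 7 samples gave PBS minus 3day nt. P-values were adjusted by Benjamini-Hochberg over all 17271 genes, and those under 0.05 are called. T11 was not tested. Fold changes are 2 to the power of the difference.

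Marker scores are the mean over a list of each gene's value minus its mean over 15 samples. The named genes are the 10, the 2 called genes of each list with the largest difference in each model comparison, and the 3 genes nearest to each of the 3 most variable MMPs. Mmp8, Syn1, Syn3, Pgr, Yap1, Birc3 and the genes named for PBS against 3day nt outside the 10 were chosen after their values were seen. The genes and lists were chosen with earlier results of these data known. Promoter sequences are from RefSeq on GRCm38.p6 and gene positions from GENCODE on GRCm38, the build mm10. One named list gene is not reported here. Replicate numbers follow accession order and pair no samples.

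Alternatives were samples centred on their medians, quantile normalization, robust eBayes, sample weights, fits of the compared groups alone, library prefix as a covariate, subsets of samples by title, leaving out muscle-high libraries, genes with a repeated value or each sample in turn, and a minimum of 1 log2 unit. The fit was also tested on simulated data.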

Additional observations from a re-analysis of the deposited data

Results flagged for a closer look

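Single samples that stood far from the rest of their group were looked for in 78 groups of 4 to 8 samples, over the 10 genes and the named list genes. In 9 groups a sample stood apart by Dixon's test, where chance flags about 1 in 20 groups, or 3.9 here. The groups reuse the same samples for every gene, and the PBS samples are also part of 2208L. They are not independent, so no excess over 3.9 can be read from the 9. Among the protease genes, Mmp13 was 4.31 in replicate 5 of 2208L, while the other PBS samples lay from 2.15 to 2.49. This sample also had the highest 2208L values of Mmp3, Mmp10, Mmp11 and Mmp12. Timp2 was 0.60 in replicate 3 of 2151R, with the others from 0.89 to 0.91. In replicate 6 of 2208L Timp2 was 0.00, with the others from -1.11 to -0.67, and among the PBS samples alone replicate 4 had -0.68, with the others from -0.94 to -0.90. Replicate 3 of 2151R and replicate 6 of 2208L are 2 of the 3 libraries with a high skeletal muscle score, whose part was not tested.

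Among list genes, 5 values were far from their group. Mmp16 was 0.00 in replicate 6 of 2208L, with the others from -4.06 to -2.43. St14 was 1.54 in replicate 1 of 2208L (others 0.63 to 1.03), and Adamts14 was 0.00 in replicate 2 of 2208L (others -1.39 to -0.79). In 2151R, Cep126 was -1.87 in replicate 3 (others -1.24 to -1.15) and Adamts15 was 1.55 in replicate 2 (others -1.20 to -0.82).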

How the results depend on the processing

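Of 19 called differences of the 10 genes, 5 were called in every setting, and 0 changed sign in any. The 5 were Mmp14 and Timp2 between 2151R and 2208L, Timp2 between 2225L and 2208L, and Mmp10 and Timp2 between 2225L and 2151R. The causes of the changes below were not tested, apart from those that requiring 1 log2 unit or fewer samples bring by construction. Requiring 1 log2 unit left 2585 genes higher in 2151R than in 2208L and 2566 lower. For PBS against 3day nt samples it left 1206 and 1002, with 1 of the 10 genes higher in PBS. With samples titled NT, nt or PBS alone, and with PBS as the sole 2208L samples, 2 of the 10 were higher in 2151R in each case, against 5 in the main fit. The share of all genes called in these settings is not given here, so the drop cannot be set against a background. Sample weights gave 958 genes higher and 1200 lower in 2225L than in 2208L, with 1 of the 10 lower, and 2529 higher and 2723 lower than in 2151R, with 3 of the 10 lower. In PBS against 3day nt samples, weights gave 5938 genes higher and 5754 lower, with 4 of the 10 higher and 2 lower. There, leaving out the muscle-high libraries leaves 1 sample titled 3day nt, assumed to vary like the PBS samples, and gave 76 genes higher and 22 lower, with 0 of the 10 in either direction. Centring samples left 1 of the 10 higher, and quantile normalization gave 2 lower, again without the share of all genes beside them. Among single genes, weights ended the calls of Mmp10 (-4.30), Mmp12 (-3.23) and Mmp13 (-3.80) in 2225L minus 2208L, and of Mmp3 (-4.62), Mmp13 (-5.34) and Mmp14 (-1.41) in 2225L minus 2151R. With the 3day nt samples as the sole 2208L samples Mmp12 (-3.74) was not called in 2225L minus 2208L. Quantile normalization ended the calls of Mmp13 in 2225L minus 2208L and of Mmp11 in 2225L minus 2151R.

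Leaving out 1 sample at a time, which in 2225L leaves a lone sample assumed to vary like the other groups, gave 3544 to 4576 genes higher and 3441 to 4168 lower for 2151R minus 2208L, with 2 to 5 and 1 to 1 of the 10. For 2225L minus 2208L it gave 1931 to 2831 and 2477 to 3217, with 0 to 0 and 1 to 4 of the 10. For 2225L minus 2151R it gave 2990 to 4091 and 3621 to 4246, with 0 to 0 and 5 to 6 of the 10. For PBS minus 3day nt it gave 1362 to 3988 and 1017 to 3111, with 0 to 2 and 1 to 2 of the 10.

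Values that changed sign were all of differences that were not called. Timp1 in 2151R minus 2208L was 0.017 with sample weights, 0.34 with PBS samples alone and 0.17 without the muscle-high libraries. Mmp14 in 2225L minus 2208L was 0.12 with quantile normalization, 0.35 with prefix as a covariate and 0.16 without the muscle-high libraries. In PBS minus 3day nt, without the muscle-high libraries, Mmp2 was 0.54, Mmp12 0.73 and Timp2 0.037, and Mmp12 was 0.045 after centring and 0.32 after quantile normalization. With 1 sample left out, the differences ran from -1.06 to 0.18 for Mmp2 and -0.33 to 0.17 for Mmp14 in 2225L minus 2208L, and from -0.63 to 1.32 for Timp3 in 2225L minus 2151R. In PBS minus 3day nt they ran from -0.54 to 0.20 for Mmp2, -0.46 to 1.05 for Mmp3 and -0.70 to 0.48 for Mmp12.

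No paired analysis was possible because no title gives replicate numbers that the groups share. Another pseudocount was not run, since the table holds logarithms with an unstated offset. The depth behind a value is unknown, and 2225L has 2 samples and T11 1.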
